A study of Mus musculus with 12 samples.

Results

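Dbp, Tef, Hlf, Nr1d1, Nr1d2, Ciart, Per2, Per3, Bhlhe40 and Bhlhe41 are clock genes whose transcripts reach their daily maximum in the same part of the day as those of Dbp. They were taken by name from the gene column of an isoform-level expression matrix of mouse myocardium, where they made up 10 of 33641 gene symbols and held 45 transcript rows. The rows were summed to gene values in TPM, a transcript's share of its library corrected for transcript length, and were also followed singly. All 10 genes reached 1 TPM in at least 3 of the 12 libraries, the filter for testing, and 29 of the 45 transcripts did. Per2 met the filter through its vehicle libraries.

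The samples were myocardium of male wild-type C57BL/6 mice of about 16 weeks, 3 mice in each of 4 groups. Every mouse had been operated on, with either a sham procedure or one that produced a myocardial infarction (MI), and from 2 weeks after surgery each received a weekly intraperitoneal injection for 6 weeks, given at lights-on (ZT0). The sham prednisone and MI prednisone groups received prednisone at 1 mg/kg, a synthetic glucocorticoid, and the sham vehicle and MI vehicle groups received vehicle. Tissue was taken 24 hours after the last dose. How the infarct was made and which part of the heart was taken are not given in the sources used here, and no clock hour is given for single mice. The labels name 1 collection time for all groups, and a difference in the clock hour of collection between vehicle and prednisone mice cannot be told apart from the drug. With 1 time sampled per group, a shift in the phase of a daily rhythm and a change in its mean level cannot be told apart. In bulk tissue, fewer cells of a type and less RNA per cell cannot be told apart either.

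The molecular clock is a feedback loop of transcription. CLOCK and BMAL1 (encoded by Arntl) pair up and bind E-boxes, and all of the genes described here are among the known E-box targets of that pair. Their products then act at different points of the loop. DBP, TEF and HLF are PAR bZIP transcription factors that activate genes through D-boxes, the same sites that NFIL3 represses. REV-ERBα and REV-ERBβ (Nr1d1, Nr1d2) are nuclear receptors that repress Arntl through ROR elements. CIART (CHRONO), PER2 and PER3 act as repressors of CLOCK:BMAL1, and DEC1 and DEC2 (Bhlhe40, Bhlhe41) compete with it for E-boxes. In the heart the loop sets daily rhythms of metabolism, electrical activity and growth signalling, and glucocorticoids are among the hormones that set the phase of peripheral clocks.

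All 10 members are annotated as protein-coding genes in GENCODE M21 (GRCm38). Dbp is at chr7:45705088-45710203 (plus strand), Tef at chr15:81802421-81826863 (plus), Hlf at chr11:90336536-90390895 (minus), Nr1d1 at chr11:98767932-98775333 (minus) and Nr1d2 at chr14:18204054-18239127 (minus). Ciart is at chr3:95878503-95882251 (minus), Per2 at chr1:91415982-91459324 (minus), Per3 at chr4:151003652-151044665 (minus), Bhlhe40 at chr6:108660629-108666925 (plus) and Bhlhe41 at chr6:145858243-145865558 (minus). Nr1d1 overlaps Thra, a thyroid hormone receptor gene on the opposite strand, at its 3′ end. The libraries were stranded, but the strand setting of the quantification is not given in the sources used here.

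The regulatory sequence of members that hold a clock motif next to their start is shown because the members moved together with prednisone, and because Tef has more than 1 start. RefSeq promoter windows (GRCm38.p6) covering 250 bases before to 50 bases after an annotated start were available for 8 of the 10 members, in 9 windows. Per2 and Bhlhe40 had none. Both strands were searched for the E-box CACGTG, the D-boxes TTATGTAA and TTACGTAA, the ROR elements TAGGTCA and TGGGTCA, and the glucocorticoid receptor core TGTTCT, which overlap in none of the printed windows. Capitals mark the matches, and each window is written 5′ to 3′ on the strand of its gene. The windows are Ciart at chr3:95882179-95882478 (minus), Bhlhe41 at chr6:145865371-145865670 (minus), Per3 at chr4:151044616-151044915 (minus), the upstream Tef start at chr15:81802423-81802722 (plus) and the downstream Tef start at chr15:81811164-81811463 (plus).
Ciart: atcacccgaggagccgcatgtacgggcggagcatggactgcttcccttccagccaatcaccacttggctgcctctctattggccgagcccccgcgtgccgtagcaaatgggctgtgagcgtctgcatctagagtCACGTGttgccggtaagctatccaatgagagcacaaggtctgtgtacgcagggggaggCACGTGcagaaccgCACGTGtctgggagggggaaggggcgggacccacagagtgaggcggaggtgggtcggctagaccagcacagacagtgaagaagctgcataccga
Bhlhe41: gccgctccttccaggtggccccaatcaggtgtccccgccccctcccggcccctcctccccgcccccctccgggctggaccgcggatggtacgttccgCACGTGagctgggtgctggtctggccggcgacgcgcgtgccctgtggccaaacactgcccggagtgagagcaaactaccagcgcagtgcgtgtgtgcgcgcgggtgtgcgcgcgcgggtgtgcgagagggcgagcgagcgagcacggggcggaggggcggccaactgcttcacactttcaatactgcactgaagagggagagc
Per3: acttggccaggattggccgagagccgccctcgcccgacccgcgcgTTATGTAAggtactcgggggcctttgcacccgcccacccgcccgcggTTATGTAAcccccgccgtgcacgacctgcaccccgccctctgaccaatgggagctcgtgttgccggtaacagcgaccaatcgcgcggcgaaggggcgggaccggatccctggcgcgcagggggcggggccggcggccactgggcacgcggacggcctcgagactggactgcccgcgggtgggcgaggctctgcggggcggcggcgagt
Tef upstream start: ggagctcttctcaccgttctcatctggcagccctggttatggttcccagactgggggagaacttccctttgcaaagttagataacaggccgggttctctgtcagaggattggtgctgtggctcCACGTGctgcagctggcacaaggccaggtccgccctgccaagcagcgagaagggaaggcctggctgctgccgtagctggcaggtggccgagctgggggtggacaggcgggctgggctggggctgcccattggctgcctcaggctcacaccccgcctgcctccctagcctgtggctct
Tef downstream start: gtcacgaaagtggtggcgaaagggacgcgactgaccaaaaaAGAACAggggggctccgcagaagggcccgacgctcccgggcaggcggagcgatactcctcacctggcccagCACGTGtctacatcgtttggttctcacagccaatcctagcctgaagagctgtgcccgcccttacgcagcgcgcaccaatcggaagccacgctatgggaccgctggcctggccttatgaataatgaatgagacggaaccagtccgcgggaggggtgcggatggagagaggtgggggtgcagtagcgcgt
Ciart held 3 E-boxes, at positions -116, -58 and -44 from its start. Bhlhe41 held 1, at -153, and each Tef window held 1, at -127 and -138. The downstream Tef window also held the glucocorticoid receptor core on its minus strand, at -209. Per3 held 2 copies of TTATGTAA, at -205 and -158. No motif of the 4 kinds was found in the windows of Dbp, Hlf, Nr1d1 and Nr1d2. Of the 32851 windows in the table, 7.15% held the E-box, 1.06% a D-box, 6.45% a ROR element and 19.0% the glucocorticoid receptor core. Among the genes of the opposite arm described later, 1 Arntl window held TAGGTCA at position 30 and the Nfil3 window held it on its minus strand at -12. These matches are a description of the letters and not of bound sites.

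TPM keeps no depth, so how deeply each library was sequenced is unknown. Between 11690 and 14307 genes reached 1 TPM in a library, and mitochondrially encoded transcripts took between 21.6% and 42.0% of all TPM. MI vehicle replicate 3 stood apart, with the 14307 genes, a mitochondrial share of 23.1% and a median difference from the sham vehicle mean of 0.74 on the log2 scale. The counts of members called and some other gene calls that rest on MI vehicle are therefore also given without it. The medians, length classes, marker values and transcript results of MI hearts are given only with it. The median log2 change of all 13158 genes tested was 0.07 for prednisone in sham hearts and -0.41 for prednisone in MI hearts. After median-ratio rescaling of the libraries these medians were 0.00 and -0.01. Changes in MI hearts are therefore to be read against a median below 0.

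The mean level of each of the 10 genes was lower in prednisone than in vehicle hearts with either surgery. In sham hearts 5 of the 10 genes fell (Dbp, Nr1d1, Per3, Nr1d2 and Tef), by limma on log2(TPM + 1) with p-values adjusted over all genes tested at a threshold of 0.05, against 0.0608% of all genes called lower there. That background was 8 genes in all, so members were 62.5% of the genes that fell, and 5 of the 10 members were among them. The members were chosen with earlier results of these data known, so this share is a description and not a test. The other 3 were Tcap, which encodes the sarcomere protein telethonin, Usp2, a ubiquitin protease with a daily rhythm in many tissues, and Coq10b, a coenzyme Q binding protein. The count of 5 was sensitive to single libraries. It was 2 without sham vehicle replicate 2 or 3, 3 without any 1 sham prednisone library and 4 without sham vehicle replicate 1, and Dbp and Nr1d1 were called each time. In MI hearts all 10 genes fell, but 34.9% of all genes were called lower there as well. That count stayed at 10 without MI vehicle replicate 3 and without any other 1 MI library.

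The median log2 change of the 10 genes was -1.10 in sham hearts and -1.53 in MI hearts. After median-ratio rescaling it was -1.18 and -1.12. On that scale 7 members were called lower in sham hearts, where 9 of all 13131 genes were. In MI hearts 9 members were called lower, all but Ciart. The calls over all genes in MI hearts went from 4588 lower and 329 higher to 1813 lower and 1888 higher. Groups of 3 did not overlap for 9 genes in sham hearts (all but Bhlhe40) and for 10 in MI hearts, where 2.58% and 42.6% of all genes were lower with no overlap. When the 6 prednisone libraries were set against the 6 vehicle libraries, 9 genes lay wholly lower, against 0.502% of all genes. Bhlhe40 was the exception, since its highest prednisone library (18.3 TPM) was above its lowest vehicle library (15.6 TPM).

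**Figure D1:**
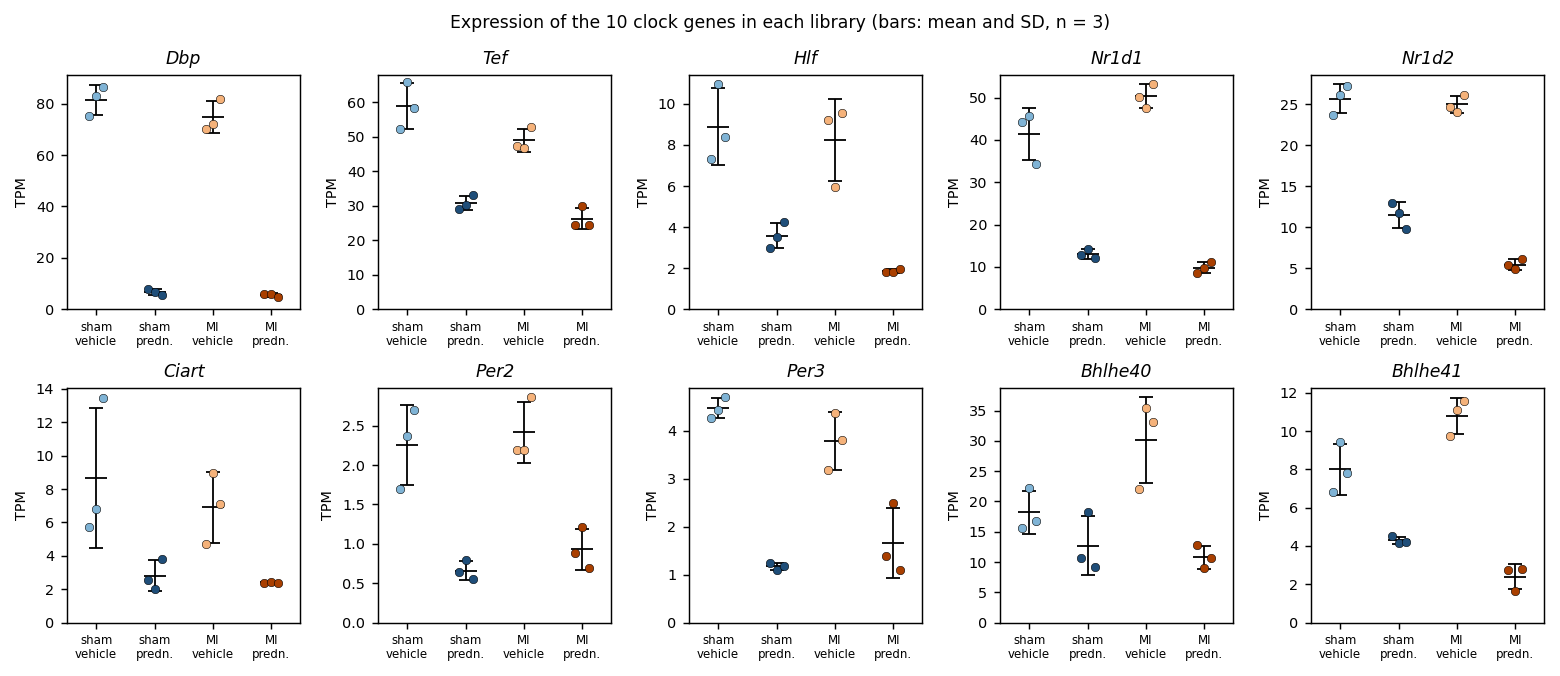
TPM of each of the 10 genes in the 12 libraries, with 1 point per mouse and bars for the mean and SD of 3 mice; each panel has its own linear axis from 0. Both prednisone groups sit below both vehicle groups for every gene except Bhlhe40, where 1 sham prednisone library reached 18.3 TPM.

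Dbp, the PAR bZIP gene with the strongest daily rhythm in most tissues, had the highest level of the 10 genes in vehicle hearts and the largest change. Its sham vehicle libraries had 75.2, 82.8 and 86.5 TPM (mean 81.5 ± 5.72 SD, n = 3) and its sham prednisone libraries 7.73, 6.61 and 5.44 TPM (6.60 ± 1.14). In MI hearts it was at 70.2, 72.1 and 81.9 TPM with vehicle (74.7 ± 6.30) and at 5.93, 5.95 and 4.84 TPM with prednisone (5.57 ± 0.63). No prednisone library came near any vehicle library. The means differed 12.4-fold in sham hearts and 13.4-fold in MI hearts. On the log2(TPM + 1) scale Dbp fell by 3.45 in sham hearts (SE 0.13, limma adjusted p = 3.16e-07) and by 3.53 in MI hearts (SE 0.13, limma adjusted p = 2.47e-07). These changes ranked 2 and 7 from the most negative of 13158 genes.

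Tef, which encodes a PAR bZIP factor with overlapping targets, changed less than Dbp. It was at 52.4, 65.9 and 58.4 TPM in sham vehicle hearts (58.9 ± 6.77) and at 29.1, 30.2 and 33.1 TPM in sham prednisone hearts (30.8 ± 2.08). In MI hearts vehicle libraries had 47.3, 46.7 and 52.7 TPM (48.9 ± 3.31) and prednisone libraries 24.5, 29.8 and 24.4 TPM (26.2 ± 3.08). The groups did not overlap with either surgery. Tef fell by 0.91 in sham hearts (SE 0.12, limma adjusted p = 0.0150) and by 0.88 in MI hearts (SE 0.12, limma adjusted p = 0.000964). The sham call was lost without sham vehicle replicate 2 or 3 or any 1 sham prednisone library, with adjusted p between 0.0589 and 0.117.

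Hlf, the least abundant PAR bZIP gene here, was at 7.30, 10.97 and 8.39 TPM in sham vehicle hearts and at 3.00, 3.49 and 4.23 TPM in sham prednisone hearts. MI vehicle libraries had 9.23, 5.95 and 9.56 TPM, and MI prednisone libraries had 1.83, 1.80 and 1.95 TPM. The MI prednisone libraries were the lowest 3 of the 12. The Hlf difference in sham hearts was -1.10 (SE 0.19) and was not called (limma adjusted p = 0.0891), and in MI hearts Hlf fell by 1.67 (SE 0.19, limma adjusted p = 0.000584).

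The summed level of the PAR bZIP genes and the part that Dbp took of it moved together. Their sum was 149 ± 12.9 TPM in sham vehicle, 41.0 ± 1.59 TPM in sham prednisone, 132 ± 10.7 TPM in MI vehicle and 33.7 ± 3.39 TPM in MI prednisone hearts (mean and SD, n = 3). Dbp took 54.7% ± 2.45 and 56.7% ± 1.21 of that sum in the vehicle groups. It took 16.2% ± 3.35 and 16.6% ± 1.58 in the prednisone groups, so the most abundant PAR bZIP transcript was that of Dbp with vehicle and that of Tef with prednisone.

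Nr1d1 encodes REV-ERBα, the main repressor of Arntl. Its sham vehicle libraries had 44.1, 45.6 and 34.3 TPM (41.3 ± 6.15) and its sham prednisone libraries 12.91, 14.23 and 12.04 TPM (13.1 ± 1.11). MI vehicle libraries had 50.1, 47.6 and 53.2 TPM (50.3 ± 2.81) and MI prednisone libraries 8.61, 9.80 and 11.1 TPM (9.84 ± 1.25). Vehicle and prednisone libraries lay far apart with either surgery. Nr1d1 fell by 1.58 in sham hearts (SE 0.13, limma adjusted p = 0.000470) and by 2.25 in MI hearts (SE 0.13, limma adjusted p = 9.17e-06). Thra, its neighbour on the opposite strand, had means of 42.6, 50.4, 43.0 and 31.8 TPM in sham vehicle, sham prednisone, MI vehicle and MI prednisone hearts.

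Nr1d2 encodes REV-ERBβ, which shares binding sites with REV-ERBα. It was at 23.7, 26.1 and 27.3 TPM in sham vehicle hearts (25.7 ± 1.81) and at 12.9, 11.7 and 9.75 TPM in sham prednisone hearts (11.5 ± 1.60). In MI hearts the vehicle libraries had 24.7, 24.1 and 26.2 TPM (25.0 ± 1.07) and the prednisone libraries 5.34, 4.88 and 6.13 TPM (5.45 ± 0.63). The vehicle groups overlapped each other, and the MI prednisone libraries were all below the sham prednisone libraries. Nr1d2 fell by 1.10 in sham hearts (SE 0.13, limma adjusted p = 0.00600) and by 2.02 in MI hearts (SE 0.13, limma adjusted p = 1.15e-05). The sham call was lost without sham vehicle replicate 2 (adjusted p = 0.0512) or 3 (adjusted p = 0.0735).

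Among the repressors of CLOCK:BMAL1, Per3 fell with either surgery. It had 4.28, 4.45 and 4.71 TPM in sham vehicle hearts and 1.24, 1.09 and 1.18 TPM in sham prednisone hearts. MI vehicle hearts had 3.17, 4.38 and 3.80 TPM and MI prednisone hearts 1.40, 2.49 and 1.10 TPM. The sham prednisone libraries were close together (1.17 ± 0.07, SD), and MI prednisone replicate 2 was the highest prednisone library. Per3 fell by 1.34 in sham hearts (SE 0.19, limma adjusted p = 0.0231) and by 0.87 in MI hearts (SE 0.19, limma adjusted p = 0.00578). The sham call was lost whichever 1 sham library was left out, with adjusted p between 0.126 and 0.171. The MI call was lost with correction for transcript length (-0.22, adjusted p = 0.473) and when only the 2 MI groups were fitted (limma adjusted p = 0.0682).

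Ciart and Per2 were called in MI hearts and not in sham hearts. Ciart, an E-box bound repressor, had 5.70, 6.78 and 13.5 TPM in sham vehicle, 2.55, 2.02 and 3.82 TPM in sham prednisone, 4.69, 8.93 and 7.10 TPM in MI vehicle and 2.40, 2.45 and 2.39 TPM in MI prednisone hearts. Its sham vehicle libraries were widely spread (8.66 ± 4.21, SD), and its sham difference of -1.29 (SE 0.29) had limma adjusted p = 0.481. In MI hearts Ciart fell by 1.18 (SE 0.29, limma adjusted p = 0.0107), a call lost after median-ratio rescaling (-0.80, limma adjusted p = 0.0712). Per2, a core repressor of the loop and a known glucocorticoid target, was low throughout, at 1.70, 2.36 and 2.70 TPM in sham vehicle, 0.64, 0.79 and 0.55 TPM in sham prednisone, 2.19, 2.20 and 2.87 TPM in MI vehicle and 0.89, 1.21 and 0.70 TPM in MI prednisone hearts. All of its vehicle libraries were above all of its prednisone libraries. Its sham difference was -0.96 (SE 0.18, limma adjusted p = 0.137), and in MI hearts it fell by 0.83 (SE 0.18, limma adjusted p = 0.00575). That MI call was lost with correction for transcript length (-0.15, adjusted p = 0.555) and when only the 2 MI groups were fitted (limma adjusted p = 0.0523). At these levels the added 1 TPM compresses the change, since the sham means of Per2 differed 3.42-fold.

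Neither of the DEC genes was called in sham hearts, and both fell in MI hearts. Bhlhe40, which encodes DEC1, was at 15.6, 22.2 and 16.8 TPM with vehicle and at 10.7, 18.3 and 9.19 TPM with prednisone. These groups overlapped, and the difference of -0.52 (SE 0.25) was not called (limma adjusted p = 1.00). In MI hearts it was at 22.04, 35.4 and 33.1 TPM with vehicle and at 12.8, 9.00 and 10.6 TPM with prednisone, and it fell by 1.39 (SE 0.25, limma adjusted p = 0.00279). Bhlhe41, which encodes DEC2, was at 6.80, 9.42 and 7.79 TPM in sham vehicle and at 4.51, 4.18 and 4.21 TPM in sham prednisone hearts, groups that did not overlap. That difference of -0.75 (SE 0.17) was not called (limma adjusted p = 0.463). In MI hearts Bhlhe41 was at 9.73, 11.1 and 11.6 TPM with vehicle and at 2.73, 1.64 and 2.80 TPM with prednisone, and it fell by 1.82 (SE 0.17, limma adjusted p = 0.000302).

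**Figure D2:**
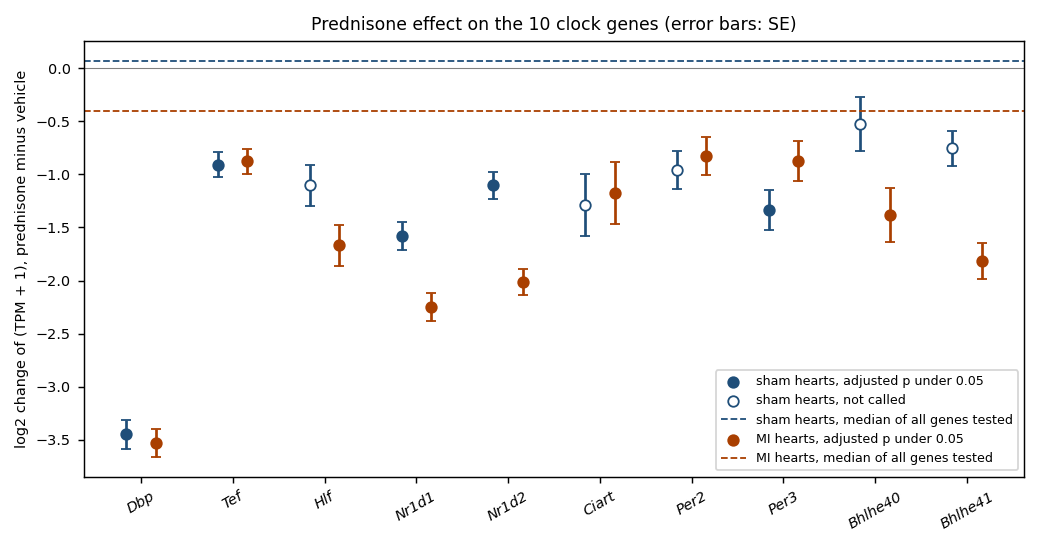
Log2 change of TPM + 1, prednisone minus vehicle, for the 10 genes in sham and MI hearts, with SE bars; filled points passed limma at adjusted p under 0.05 and dashed lines give the median of all genes tested. Every point lies below 0, and Dbp lies lowest, at -3.45 and -3.53.

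Whether prednisone acted on these genes differently in infarcted and sham hearts was tested as an interaction. The difference between the prednisone changes was called lower for 3 genes, against 20.7% of all genes. It was -0.67 for Nr1d1 (SE 0.19, limma adjusted p = 0.0320), -0.91 for Nr1d2 (SE 0.18, limma adjusted p = 0.00997) and -1.06 for Bhlhe41 (SE 0.24, limma adjusted p = 0.0141). The median of all genes was -0.48 for this contrast, and relative to it the values were -0.19, -0.43 and -0.58. None of the 3 was called after median-ratio rescaling or after correction for transcript length. The count was 3 without MI vehicle replicate 3, and 2 without sham vehicle replicate 1 or 3, any 1 sham prednisone library, or MI prednisone replicate 1 or 2. For Dbp the difference was -0.08 (limma adjusted p = 0.783) and for Tef 0.03 (adjusted p = 0.905), but the sign of each changed with the scaling or the libraries used. These p-values do not show that the changes were equal.

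The infarct itself was compared in vehicle hearts and in prednisone hearts. In vehicle hearts none of the 10 genes was called by limma, against 15.1% of all genes called higher. An unadjusted limma p under 0.05 was found for 2 members and for 5557 of all 13158 genes. The median change of the members was -0.07 while that of all genes was 0.39. Nr1d1 and Bhlhe41 lay higher in MI vehicle with no overlap, by 0.29 (limma adjusted p = 0.124) and 0.40 (limma adjusted p = 0.0999), as did 5374 of all 13158 genes. Both signs turned after median-ratio rescaling, to -0.16 and -0.01. Bhlhe40 differed by 0.69 (limma adjusted p = 0.0748), and without MI vehicle replicate 1 by 0.89 (limma adjusted p = 0.0243). Tef, at -0.26 (limma adjusted p = 0.120), was called lower after median-ratio rescaling (-0.71, adjusted p = 0.0232), with mitochondrial, nuclear-copy and globin rows removed (-0.50, adjusted p = 0.0131) and with length correction (-0.69, adjusted p = 0.0209). Without MI vehicle replicate 3 no member was called.

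Between the prednisone groups 3 genes were lower in MI hearts, against 14.1% of all genes. Nr1d2 differed by -0.95 (SE 0.13, limma adjusted p = 0.00158), Hlf by -0.67 (limma adjusted p = 0.0374) and Bhlhe41 by -0.66 (SE 0.17, limma adjusted p = 0.0209). All 3 had no overlap, as had Nr1d1 (-0.38, limma adjusted p = 0.0776), where 4242 of all 13158 genes were lower with no overlap. Nr1d2 was called whichever 1 library was left out. The count was 1 without any 1 sham prednisone library or without MI prednisone replicate 2, where Bhlhe41 was not called, and the Hlf call was lost without any 1 library of the prednisone groups. With correction for transcript length neither Hlf (-0.39, limma adjusted p = 0.142) nor Bhlhe41 (-0.40, limma adjusted p = 0.125) was called. Their main transcripts differed by -0.18 (limma adjusted p = 0.505) and -0.15 (limma adjusted p = 0.530), and neither was called. The infarct comparison with prednisone and the interaction share the prednisone libraries and are not separate evidence.

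The fall in MI hearts went with other measured differences between the MI groups. Transcript length was one of them. When all genes were placed in 4 classes of equal size by length, a division chosen after the values were seen, their median prednisone change in MI hearts was -0.11 in the shortest class and then -0.32, -0.47 and -0.65. In sham hearts the classes had medians of 0.03, 0.05, 0.09 and 0.11. Ciart lay in the shortest class, Dbp in the next, Tef, Nr1d1 and Bhlhe40 in the third, and Hlf, Nr1d2, Per2, Per3 and Bhlhe41 in the longest. After a loess correction of each library against length, 7 of the 10 genes were called lower in MI hearts, as were 1009 of all 13122 genes. Dbp was then at -3.22, Nr1d1 at -1.78, Nr1d2 at -1.40, Bhlhe41 at -1.23, Hlf at -1.07, Bhlhe40 at -0.90 and Tef at -0.43. Ciart was at -0.9975 (limma adjusted p = 0.0506), Per3 at -0.22 (adjusted p = 0.473) and Per2 at -0.15 (adjusted p = 0.555).

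**Figure D3:**
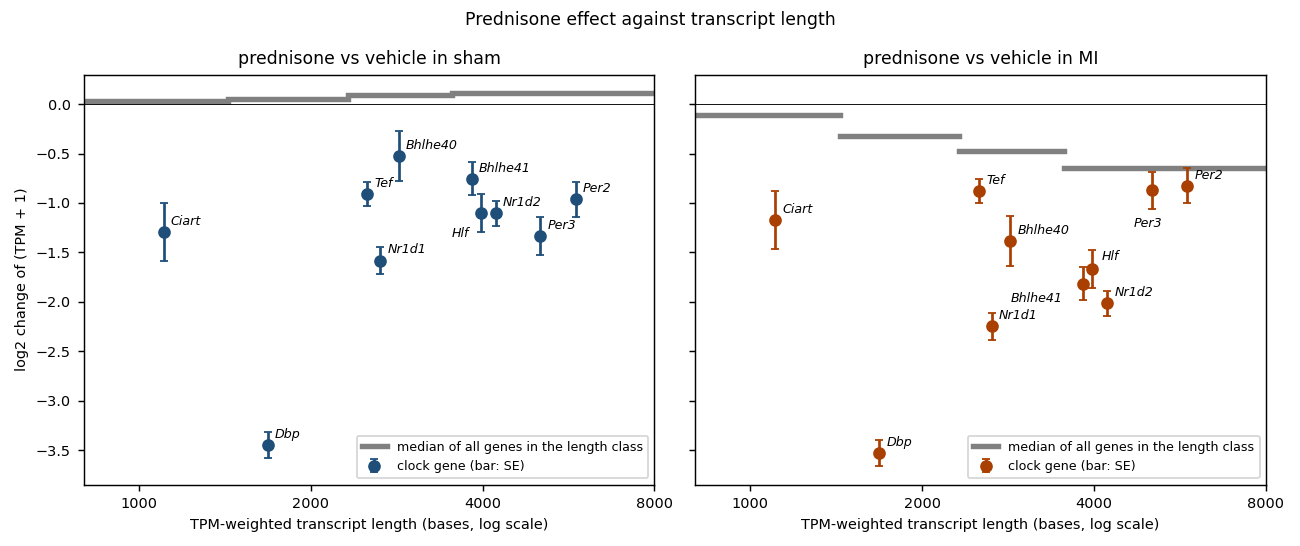
Log2 change of TPM + 1 with prednisone against the TPM-weighted transcript length of each gene (log axis), in sham hearts on the left and MI hearts on the right; grey lines give the median of all genes in each length class, drawn only over the lengths shown, and bars are SE. In MI hearts the grey lines step down from -0.11 to -0.65, and Per2 and Per3 lie close to the line of their class while Dbp, Nr1d1 and Nr1d2 lie far below.

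Markers of heart cell types also moved between the MI groups. The summed TPM of 6 cardiomyocyte markers ranged from 20924 to 25958 in MI vehicle and from 30926 to 34009 in MI prednisone hearts. The sum of 5 fibroblast markers ranged from 823 to 1054 and from 303 to 527, and that of 5 macrophage markers from 508 to 1195 and from 250 to 474. Atrial markers (Myl7, Sln and Nppa) summed to between 2503 and 3722 TPM in MI vehicle and to between 3718 and 5405 TPM in MI prednisone hearts. Of 38 marker genes tested, 11 were called lower and 5 higher by limma, where 34.9% of all genes were called lower and 2.5% higher. In sham hearts none was called, and the cardiomyocyte sums of 29257 to 30702 TPM with vehicle and 30126 to 34966 TPM with prednisone overlapped. The endothelial sums (127 to 141 TPM with vehicle, 145 to 167 TPM with prednisone) and the smooth muscle and pericyte sums (114 to 122 and 124 to 128 TPM) did not overlap in sham hearts, and their part in the sham result was not tested. No marker list was at 0 in any group, and the cardiomyocyte markers Myh6, Tnnt2, Tnni3, Actc1, Ryr2 and Myl2 were present throughout. The part of length and of cell makeup in the MI result was not tested beyond these values.

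Of the genes that oppose this group in the loop, Arntl and Nfil3 were called higher with prednisone in sham hearts. Arntl, which encodes BMAL1 and is repressed by REV-ERB proteins, had 1.87, 2.40 and 1.46 TPM in sham vehicle and 10.4, 8.90 and 12.4 TPM in sham prednisone hearts. It rose by 1.99 (SE 0.27, limma adjusted p = 0.0208), where 0.0532% of all genes were called higher, but it was not called without any 1 of the 6 sham libraries (changes of 1.88 to 2.11, adjusted p between 0.0674 and 0.155). In MI hearts it had 2.90, 3.75 and 8.26 TPM with vehicle and 7.47, 8.65 and 8.45 TPM with prednisone, so MI vehicle replicate 3 lay within the prednisone range. The change of 0.72 was not called (limma adjusted p = 0.0567), and without that library it was 1.09 (limma adjusted p = 0.00192). Nfil3, the repressor at D-boxes, had 2.64, 2.53 and 2.39 TPM in sham vehicle, 9.42, 10.91 and 11.98 TPM in sham prednisone, 2.90, 3.24 and 3.36 TPM in MI vehicle and 12.5, 12.2 and 10.9 TPM in MI prednisone hearts. It rose by 1.73 in sham hearts (SE 0.12, limma adjusted p = 0.000123) and by 1.63 in MI hearts (SE 0.12, limma adjusted p = 6.07e-05), where 2.5% of all genes were called higher, and it was called whichever 1 library was left out.

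The balance of the arms can be read within each library as a ratio of TPM values. Dbp to Arntl was 44.7 ± 13.1 in sham vehicle, 0.642 ± 0.175 in sham prednisone and 0.685 ± 0.110 in MI prednisone hearts (mean and SD, n = 3). In MI vehicle it was 24.2, 19.2 and 9.92. Dbp to Nfil3 was 32.4 ± 3.87 and 23.6 ± 1.21 in the sham and MI vehicle groups and 0.627 ± 0.184 and 0.468 ± 0.023 in the prednisone groups. Every vehicle library thus held more Dbp than Arntl or Nfil3, and every prednisone library held less. As background, Dbp transcripts in mouse tissues kept in a light-dark cycle are usually near their daily low around lights-on and Arntl transcripts near their high. A ratio of the TPM of different genes does not give the place of each gene in its own daily cycle. The labels put all groups at the same time after injection at lights-on, without a clock hour for single mice. Where each library stood in the daily cycle was not tested.

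**Figure D4:**
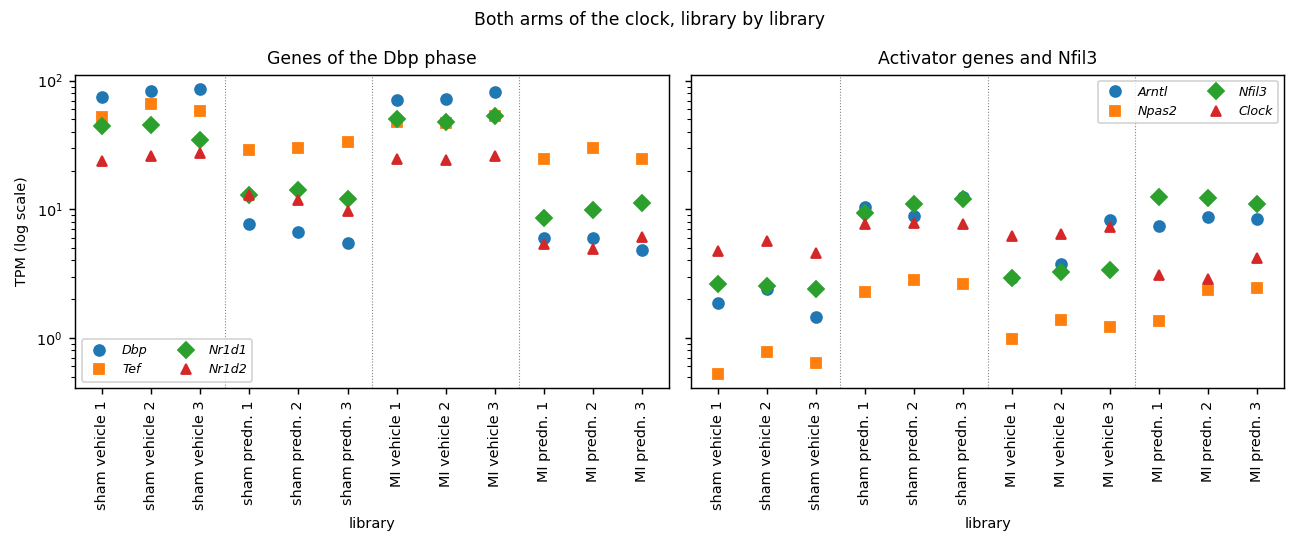
TPM (log axis) in each of the 12 libraries for 4 genes of the Dbp phase on the left and for Arntl, Npas2, Nfil3 and Clock on the right; dotted lines part the groups. Dbp stands between 70.2 and 86.5 TPM in the vehicle libraries and between 4.84 and 7.73 TPM in the prednisone libraries, and Nfil3 does the reverse between 2.39 and 12.5 TPM.

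Of 18 other clock genes, 16 passed the filter (all but Rorb and Fbxl21). In sham hearts none of them was called lower and 2, Arntl and Nfil3, were called higher, with a median change of 0.07, equal to that of all genes. In MI hearts 9 were called lower and 1 (Nfil3) higher, where 34.9% of all genes were called lower and 2.5% higher, with a median of -0.47 against -0.41 for all genes. After median-ratio rescaling the counts were 6 lower and 5 higher with a median of -0.07 (1813 lower and 1888 higher of all 13131 genes). After length correction they were 1 lower and 4 higher (1009 lower and 1149 higher of all 13122 genes), and without MI vehicle replicate 3 they were 7 lower and 4 higher (3665 lower and 477 higher of all 12847 genes). Npas2, a partner of BMAL1 like CLOCK, had 0.53 to 0.78 TPM in sham vehicle and 2.29 to 2.82 TPM in sham prednisone hearts, a difference of 1.12 (limma adjusted p = 0.0510). Clock differed by 0.54 in sham hearts (limma adjusted p = 0.698) and fell by 0.81 in MI hearts (limma adjusted p = 0.00214), a value that was -0.11 (adjusted p = 0.483) after length correction. Cry1, a core repressor that peaks later than the Per genes, differed by 0.71 in sham and by 0.09 in MI hearts, and without MI vehicle replicate 3 it was called higher in MI hearts at 0.69 (limma adjusted p = 0.00771). Per1, a gene that glucocorticoids are known to induce, had 11.3, 16.6 and 15.8 TPM in sham vehicle and 8.33, 8.74 and 2.84 TPM in sham prednisone hearts (limma adjusted p = 0.978), and it fell by 1.65 in MI hearts (SE 0.34, limma adjusted p = 0.00461). Cry2 fell by 0.86 in MI hearts (limma adjusted p = 0.00156). Other genes called lower there included Rora (-0.93), Csnk1d (-1.01), Csnk1e (-0.56), Btrc (-0.37) and Fbxw11 (-1.02). They encode a nuclear receptor, kinases and ubiquitin ligase parts that act in the clock. The Csnk1e call was lost without MI vehicle replicate 3, MI prednisone replicate 1 or MI prednisone replicate 2, and the Btrc call without any 1 MI library other than MI vehicle replicate 1.

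Among 4 other genes known for daily rhythms in many tissues, Usp2 fell by 0.97 in sham hearts (SE 0.15, limma adjusted p = 0.0380) and by 1.41 in MI hearts (limma adjusted p = 0.000429). Its sham call held without sham vehicle replicate 1 and was lost without each of the other 5 sham libraries, with adjusted p up to 0.278. Tspan4, a tetraspanin, had 23.7, 30.2 and 24.4 TPM in sham vehicle and 13.2, 11.3 and 13.8 TPM in sham prednisone hearts. Its sham difference of -0.97 was not called (limma adjusted p = 0.0792), and it fell by 1.30 in MI hearts (limma adjusted p = 0.000832). Wee1, a cell cycle kinase under clock control, differed by -0.27 in sham hearts (limma adjusted p = 1.00) and fell by 1.04 in MI hearts. Tsc22d3, a glucocorticoid-induced gene, was called in neither comparison, at -0.03 in sham hearts (limma adjusted p = 1.00) and -0.59 in MI hearts (limma adjusted p = 0.0688).

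The genes outside the group whose pattern was most like that of Dbp were found by Pearson correlation of log2(TPM + 1) over the 12 libraries, among tested genes averaging 5 TPM or more. The 5 highest were Coq10b (r = 0.961), Tcap (0.948), Cry2 (0.931), Tspan4 (0.9002) and Usp54 (0.880). The 5 lowest were Nfil3 (-0.992), Mmaa (-0.914), Tuba8 (-0.892), Cited4 (-0.885) and Fam195a (-0.874). Tcap had 1825, 1789 and 1874 TPM in sham vehicle, 673, 587 and 621 TPM in sham prednisone, 1411, 1395 and 1150 TPM in MI vehicle and 672, 813 and 565 TPM in MI prednisone hearts. Its vehicle libraries were all above its prednisone libraries. The 12 points share the 4 groups, so these values describe the group pattern. Among the members, correlation with Dbp ran from 0.785 for Bhlhe40 to 0.975 for Nr1d1. The median over the 45 pairs of members was 0.872, and 0.147 (from -0.701 to 0.682) once each library was expressed as its deviation from its group mean.

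The transcripts of the members were tested singly as well. Of the 29 transcripts tested, 5 were called lower in sham hearts, against 0.0252% of all 27769 transcripts tested, and 19 were called lower and 1 higher in MI hearts, against 27.1% called lower. The 5 in sham hearts were 3 transcripts of Dbp and the main transcripts of Nr1d1 and Nr1d2. The most abundant transcript of each of the 10 genes was called lower in MI hearts, and 3 of these were in sham hearts. The main transcripts of Per2, Per3 and Ciart met the filter through vehicle libraries, so they were testable because of their vehicle level. Among transcripts with a mean of at least 1 TPM, the same held for ENSMUST00000211513.1 and ENSMUST00000211748.1 of Dbp, ENSMUST00000107881.7 of Hlf and ENSMUST00000164673.1 of Tef. It also held for ENSMUST00000139220.1 of Nr1d1 and ENSMUST00000166346.1 of Bhlhe40, which were not called in sham or MI hearts. The main Per3 transcript was at 0.013 to 0.98 TPM in the prednisone libraries. The main Nr1d1 transcript, ENSMUST00000064941.6, had 42.4, 44.1 and 33.2 TPM in sham vehicle and 12.4, 13.0 and 11.9 TPM in sham prednisone hearts. The main Dbp transcript, ENSMUST00000080885.11, took 78.2% ± 4.5 of the gene's TPM in sham vehicle and 78.0% ± 5.6 in MI vehicle, but 55.6% ± 11.7 and 47.9% ± 9.2 in sham and MI prednisone hearts.

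Tef transcripts from different starts had different levels in MI hearts. ENSMUST00000023024.7, a protein-coding form of 4079 bases whose start is the downstream window printed above, had 16.8, 19.6 and 20.0 TPM in sham vehicle, 8.47, 10.3 and 9.98 TPM in sham prednisone, 18.1, 17.4 and 20.2 TPM in MI vehicle and 2.41, 1.31 and 5.37 TPM in MI prednisone hearts. It fell by 2.41 in MI hearts (SE 0.29, limma adjusted p = 0.000277), and the difference from its sham change was -1.50 (SE 0.40, limma adjusted p = 0.0278), with 15.8% of all transcripts called lower for that difference. ENSMUST00000109553.8, a protein-coding form of 4403 bases that starts at 81802421, upstream, had 11.1, 10.7 and 13.7 TPM in sham vehicle, 5.65, 4.57 and 6.74 TPM in sham prednisone, 9.24, 10.1 and 11.8 TPM in MI vehicle and 9.89, 10.5 and 5.66 TPM in MI prednisone hearts. Its MI groups overlapped, and its change of -0.27 was not called (limma adjusted p = 0.365). ENSMUST00000169952.1, a processed transcript of 441 bases, rose by 1.01 in MI hearts (SE 0.21, limma adjusted p = 0.00515), from 1.13 to 2.47 TPM with vehicle to 3.59 to 4.73 TPM with prednisone. Grouping transcripts by start, chosen after the values were seen, the 5 upstream forms summed to 17.3 ± 1.35 TPM in MI vehicle and 18.7 ± 2.68 TPM in MI prednisone hearts (mean and SD, n = 3). The 3 forms of the downstream start summed to 20.4 ± 2.95 and 3.03 ± 2.10 TPM, and 2 forms further downstream to 11.3 ± 1.29 and 4.47 ± 3.27 TPM. In sham vehicle and sham prednisone hearts the same sums were 21.4 ± 2.63 and 15.7 ± 3.09, 20.1 ± 2.52 and 10.2 ± 1.18, and 17.5 ± 3.66 and 4.93 ± 1.94 TPM. The upstream forms did not move alike in MI hearts, since ENSMUST00000164673.1 fell by 0.83 (limma adjusted p = 0.0198) while ENSMUST00000169952.1 rose. Estimates for forms that share most of their exons depend on the few bases that tell them apart, and the deposited values carry no error for that step.

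**Figure D5:**
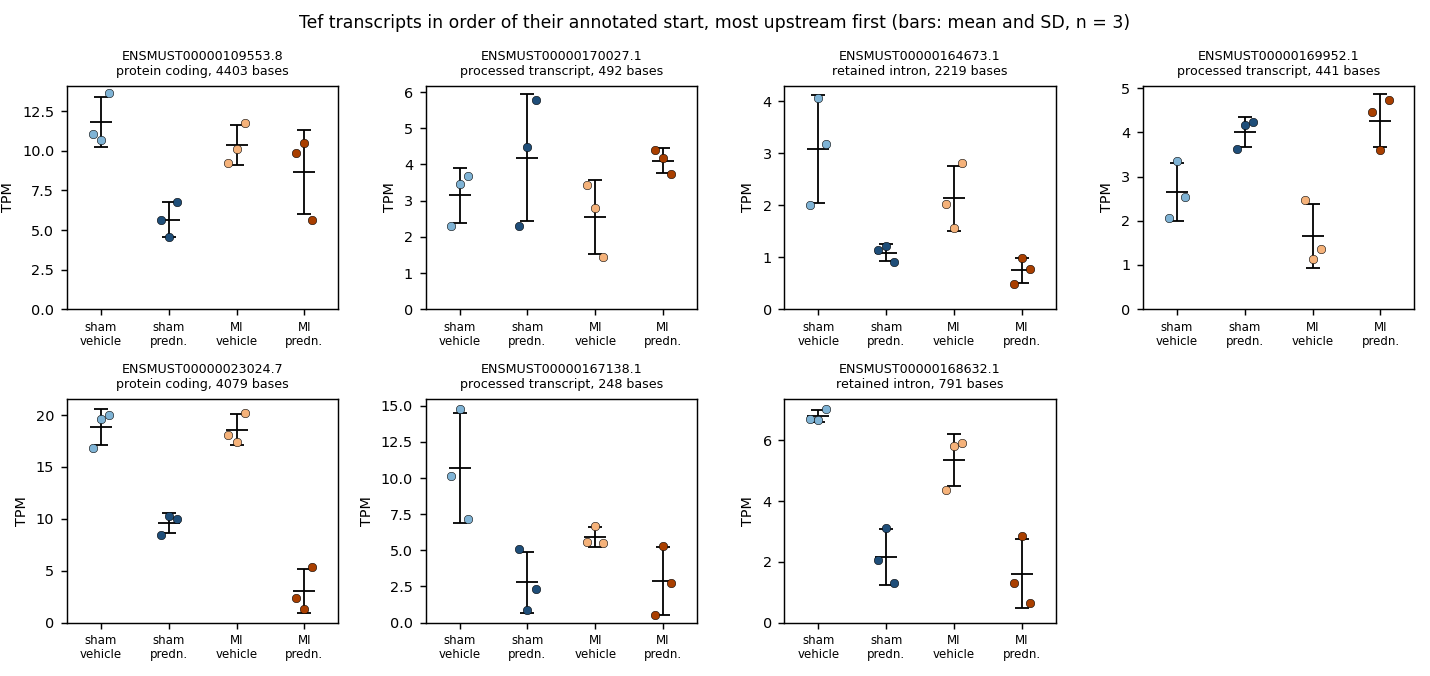
TPM of the Tef transcripts with a mean of at least 1 TPM, in order of annotated start, with 1 point per mouse and bars for mean and SD (n = 3); each panel has its own linear axis. In MI prednisone hearts ENSMUST00000023024.7 lies at 1.31 to 5.37 TPM, below every other group, while ENSMUST00000109553.8 overlaps MI vehicle.

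Transcripts of other members differed too. Bhlhe41, a gene that was called for the interaction as a sum, had a form of 744 bases, ENSMUST00000111703.1, at 2.20, 3.90 and 2.89 TPM in sham vehicle, 2.42, 1.85 and 1.72 TPM in sham prednisone, 4.63, 4.75 and 5.49 TPM in MI vehicle, and 0.48 and 0.77 TPM and listed at 0 in MI prednisone hearts. It fell by 2.11 in MI hearts (limma adjusted p = 0.000215), with a difference of -1.71 from its sham change (limma adjusted p = 0.00822). The long form of 6133 bases, ENSMUST00000032386.10, fell by 1.14 in MI hearts (limma adjusted p = 0.000630), and its difference from sham was -0.30 (limma adjusted p = 0.367). Hlf transcript ENSMUST00000107881.7 was listed at 0 in all 3 MI prednisone libraries and at 2.87, 1.36 and 1.27 TPM in MI vehicle hearts. The main Ciart transcript, ENSMUST00000036418.9, took 60.7% ± 7.6 and 69.6% ± 5.8 of the gene in sham and MI vehicle hearts and 20.1% ± 2.0 and 35.3% ± 24.1 in the prednisone groups. The main Per3 transcript, ENSMUST00000103204.10, took 67.6% ± 19.7 of the gene in MI vehicle and 23.0% ± 24.2 in MI prednisone hearts. In sham vehicle and sham prednisone hearts it took 64.5% ± 9.8 and 78.3% ± 1.3. Per2 rested on 1 transcript, and the main Nr1d1 transcript took 92.1% to 97.2% of the gene in group means.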

How the data were processed

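Polyadenylated RNA of 12 hearts was sequenced from stranded libraries, per the labels' protocols. The submitters' processing notes name Trimmomatic, HISAT2, kallisto and mm10, without versions or settings. The authors deposited TPM values per transcript, which sum to the same total in each library, so read depth and counting error are unknown. Transcript rows were summed by gene symbol. limma 3.58.1 (R 4.3.3) with an intensity trend was fitted to log2(TPM + 1), with 4 group means, on 13158 genes and 27769 transcripts with at least 1 TPM in at least 3 libraries, and p-values were adjusted by Benjamini-Hochberg over all of them (threshold 0.05). The scripts were tested on simulated data. Tables were handled with Python 3.11.15, pandas 2.3.3 and numpy 2.4.6. Fold changes on this scale understate the change of low genes.

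The genes named were the 10 members, clock and rhythmic genes of fixed lists where called or needed as the opposite arm, member transcripts with a mean of at least 1 TPM, and the 5 highest and 5 lowest correlations with Dbp. Spans and transcript lengths are from GENCODE M21 and promoter windows from RefSeq. The members and lists were chosen with earlier results of these data known. Each mouse is a separate sample, per the labels. Same-numbered libraries belong to different mice, so the replicate number was not in the model. Alternatives covered scaling, filter, pseudocount, trend, transcript length, groups in the fit, single libraries and single transcripts. Cell type markers were cardiomyocyte, fibroblast, endothelial, smooth muscle and pericyte, macrophage, T cell, B cell, adipocyte, atrial, erythroid and skeletal muscle genes. Endothelial marker sums ranged from 163 to 222 TPM in MI vehicle and from 117 to 132 TPM in MI prednisone hearts, and the other lists not given in the results overlapped between those groups.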

Additional observations from a re-analysis of the deposited data

Results flagged for a closer look

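For 3 of the 10 genes the prednisone change differed between infarcted and sham hearts by a test of the difference itself (limma interaction, n = 3 per group). The difference in log2 change was -0.67 for Nr1d1, -0.91 for Nr1d2 and -1.06 for Bhlhe41, so each was more negative in MI hearts. The median of all genes for the same contrast was -0.48, and 20.7% of all genes were called lower. After median-ratio rescaling the values were -0.14, -0.40 and -0.59, with limma adjusted p of 0.739, 0.325 and 0.160.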

How the results depend on the processing

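Dbp and Nr1d1 were called lower with prednisone in sham and MI hearts under every alternative run, and all 10 genes kept a negative change in both comparisons. The count of members called lower in sham hearts (5) was 7 after median-ratio rescaling, with length correction or with mitochondrial, nuclear-copy and globin rows removed, 3 with each gene as its most abundant transcript, 2 to 4 without 1 library and 2 with length correction together with the replicate block. Over all genes, 9 were called lower in sham hearts after rescaling, 11 with length correction, 10 with those rows removed and 2 with length correction and the block. Without 1 library, 4 to 9 of all genes were called there in either direction. In MI hearts the member count (10) was 9 after median-ratio rescaling, 7 with length correction, 8 when only the 2 groups were fitted and 6 with length correction and the block. The interaction count (3) was 0 after median-ratio rescaling, 0 with length correction, alone or with the block, and 2 to 4 without 1 library. MI against sham gave 1 call in vehicle hearts (Tef, lower) after median-ratio rescaling, with mitochondrial, nuclear-copy and globin rows removed, or with length correction, and 0 to 1 without 1 library. In prednisone hearts the count (3) was 1 with length correction and the block and 1 to 3 without 1 library. For transcripts, the sham count (5) was 3 with the block, and the interaction count (4) was 2 after median-ratio rescaling and 2 without the filter. In the main fit 15.8% of all transcripts were called lower for the interaction. The block alone gave 4 genes in sham hearts (5 of all 13158 genes), 10 in MI hearts and 2 for the interaction. In the main fit 34.9% of all genes were called lower in MI hearts, 20.7% for the interaction and 14.1% for MI against sham with prednisone. Where no share over all features is given for an alternative, its member count is not read as a result about the members. Same-numbered libraries did not deviate together, with mean correlations of 0.00, -0.25, -0.37 and -0.05 over the comparisons. With deviations taken from means of 3 libraries, these values cannot show whether the numbers mark a shared batch. Over all genes the MI calls of 4588 lower and 329 higher became 1009 and 1149 with length correction, and the interaction calls of 2726 lower became 579 and 150 after rescaling and length correction. The causes were not tested.

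Signs that turned belonged to changes that had not been called. For the interaction, Dbp was 0.45 after median-ratio rescaling, 0.069 with rows removed and 0.27 with length correction, with or without the block, Hlf was 0.13 with length correction, with or without the block, and 0.13 as its main transcript, and the main transcripts of Tef and Per3 gave -1.50 and -0.45. For MI against sham in vehicle hearts, Nr1d1 was -0.16 and -0.14, Per2 -0.24 and -0.31, and Bhlhe41 -0.013 and -0.022, after rescaling and with length correction (with or without the block), and Per2 was -0.11 with rows removed. In prednisone hearts the main transcripts of Ciart and Per3 gave 0.20 and -0.61. Leaving out 1 library at a time, the interaction ran from -0.19 to 0.029 for Dbp, from -0.061 to 0.11 for Tef and from -0.22 to 0.34 for Ciart. MI against sham ran in vehicle hearts from -0.22 to 0.089 for Hlf, from -0.091 to 0.0060 for Nr1d2, from -0.46 to 0.093 for Ciart and from -0.052 to 0.18 for Per2, and in prednisone hearts from -0.28 to 0.061 for Ciart and from -0.36 to 0.10 for Bhlhe40.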
